A study of Homo sapiens with 9 samples.

Results

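The genes described here are those whose RNA level lay on one side of the control in every library of a MILIP knockdown made with a pair of siRNAs. All 6 siRNA libraries (3 of siRNA1 and 3 of siRNA2) had to lie above all 3 control libraries, or all 6 below them, in library-scaled counts. Of 15345 genes with enough counts to test, among 60612 listed, 3946 met the rule, 1993 above and 1953 below. The cells were MDA-MB-231, an established human line of triple-negative breast cancer with a mesenchymal character. Control cells received a negative control siRNA, the others siRNA1 or siRNA2, and RNA was taken 48 hours after transfection, with 3 libraries per group and 9 in all. All groups were one cell line transfected with the same lipid reagent, with no untransfected cells among them. The design text and the treatment label of each siRNA library name MILIP as the target. A separate treatment text calls the siRNAs PLANE, and the target was therefore checked in the counts. Whether the 3 libraries of a group are separate cultures is not in the labels. The p-values are therefore set against a spread that may be only technical.

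MILIP is a long noncoding RNA transcribed beside MAFG from the opposite strand, and MAFG codes for one of the small MAF proteins, which pair with other factors on DNA. MILIP has been described as an RNA that MYC induces, and as a partner of repair and stress proteins. An siRNA loads into an Argonaute protein and directs cleavage of the RNA it matches along its length. Through bases near its 5′ end, the seed, the same siRNA can also lower many transcripts that match only there, most often in the 3 prime untranslated region (3' UTR). A pair of siRNAs with different sequences shares its intended target but not, in general, its seed matches, which is why the genes moving the same way with both are set apart here. Both siRNAs were set against the same 3 control libraries, so a control library that is high or low for a gene moves both comparisons together.

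Levels are given in CPM, the count of a gene per 1000000 counts after TMM scaling of the libraries. CPM is not corrected for gene length and is compared within a gene only. Total counts were 15281220 to 19759371 per library, so 3 counts, the most that a count of 0 allows, are 0.152 to 0.196 CPM by counting error alone. Fold changes are log2 values from edgeR's quasi-likelihood fit of all 3 groups, with the siRNA groups weighted equally, and a gene is called at a Benjamini-Hochberg adjusted p below 0.05 over all tested genes. A gap is the log2 ratio of the siRNA library nearest to control over the control library nearest to it, each with 0.5 CPM added.

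MILIP itself met the rule. Its level was 8.2, 8.31 and 8.69 CPM in control, 1.2, 0.617 and 1.9 with siRNA1 and 0.533, 0.963 and 0.349 with siRNA2. In raw counts, the control libraries had 133, 126 and 148, those of siRNA1 had 19, 11 and 37, and those of siRNA2 had 10, 19 and 6. The means were 8.40 ± 0.254 CPM in control, 1.24 ± 0.641 with siRNA1 and 0.615 ± 0.315 with siRNA2 (SD, n = 3). No siRNA library came near the control libraries, and the gap was 1.86. The mean over both siRNAs was 11% of control, with a pooled log2 change of -3.23 (SE 0.218). An exact two-sided permutation test of 6 against 3 libraries gave p = 0.0119, the smallest that the 84 arrangements allow. MILIP met the rule on these same values, so that p restates the rule and no support is read from it. The test also counts libraries of different siRNAs as alike. The siRNA2 libraries held less MILIP than those of siRNA1, at a log2 difference of -0.99 (adjusted p = 0.0264, edgeR). The transcript of 1895 bases has 2 exons at chr17:81927829-81928445 and chr17:81929476-81930753 on the plus strand of GRCh38. MAFG, its neighbour on the other strand, stood at 152, 166 and 157 CPM in control, 215, 211 and 213 with siRNA1 and 192, 183 and 179 with siRNA2. All 6 siRNA libraries lay above control, with a gap of only 0.11 and a pooled log2 change of 0.33 (SE 0.0501).

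The siRNA sequences were not used here, but 2 stretches of MILIP are shown for words that some of the genes below hold in their 3' UTR. For each siRNA, all 7-base words were compared by the mean log2 change of genes whose longest 3' UTR holds the word against genes whose 3' UTR does not. The 30-base stretches show the word, among those that MILIP holds, that went with the strongest shift downward, relative to its error, for each siRNA. Over all words, the strongest for siRNA2 was ACCCTAA (982 3' UTRs, shift -0.33), which MILIP does not hold and which shares ACCCTA with the word shown. Capitals mark the word, the sequence is that of the GENCODE transcript, and each word occurs 1 time in MILIP.
siRNA1 word in MILIP, chr17:81930346-81930375, plus strand: gctggagtcagggcAATTCCAaccaagaaa
siRNA2 word in MILIP, chr17:81930470-81930499, plus strand: attggtaacatagaGACCCTAtcgctacaa
The first word stood in 2131 of 12589 tested 3' UTRs, whose genes changed by -0.36 on the log2 scale relative to the others with siRNA1. The second stood in 674, whose genes changed by -0.42 with siRNA2. Both words were picked on these same fold changes, and that either lies in the siRNA's target site was not tested. Either word was held by 20.6% of tested 3' UTRs, by 11.6% of those of genes above control and by 29.6% of those of genes below. Among the 179 genes with a tested 3' UTR that lay below control and at least 2-fold lower, 56.4% held either word, 42.5% the first, 22.9% the second and 8.94% both. Those 3' UTRs were also longer, with a median of 2167 bases against 1371 over all. Where a gene given below with values per library lay under control and holds a word, this is said beside it. The part of the words in its change was not tested. For RPA1, POLA1, PCNA, FEN1, MCM2 and VIM the words are not given. Named genes above control hold words too. TNFRSF1B, ELF3, TPM1, CHAC1, SLC7A5 and AGO4 hold the siRNA1 word, and CEMIP, PDGFRB, PMEPA1 and AKR1C2 the siRNA2 word. Without genes holding either word, 1782 genes lay above control and 1426 below.

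The genes above control made up 13% of tested genes and those below 12.7%. By the pooled test, 24.2% of tested genes were called higher and 27.8% lower. The rule used the same libraries as that test, so no support is read from the 1950 genes above and 1910 below that were also called. Above control the median pooled log2 change was 0.61 (10th to 90th percentile 0.29 to 1.53), and 494 genes were at least 2-fold higher, 86 at least 4-fold and 20 at least 8-fold. Below control the median was -0.53 (-1.02 to -0.27), with 217 genes at least 2-fold lower, 9 at least 4-fold and 1 at least 8-fold. Changes upward were thus larger at the extreme. The median over all tested genes was -0.02.

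The median gap was 0.192 on the log2 scale for genes above control and 0.154 for those below. A gap of at least 1, meaning that even the nearest libraries differed by about 2-fold, was found for 52 genes above and 12 below. A gap under 0.1 was found for 584 above and 710 below. At the threshold itself, EXOG, a mitochondrial nuclease, stood at 14.9, 14.5 and 12.2 CPM in control, 12.2, 10.8 and 10.4 with siRNA1 and 10.6, 10.7 and 11.6 with siRNA2, where control replicate 3 and siRNA1 replicate 1 nearly met. CDC34, a ubiquitin-conjugating enzyme, had its closest libraries in control replicate 3 and siRNA2 replicate 3, in values of 58.5, 61.1 and 65.1 CPM in control, 105, 86.2 and 103 with siRNA1 and 72.5, 67.9 and 65.1 with siRNA2. Just outside were DLG1, a scaffold of cell polarity, at 151, 138 and 135 CPM in control, 153, 177 and 151 with siRNA1 and 226, 239 and 234 with siRNA2, and H2AZ2, a histone variant gene. H2AZ2 stood at 313, 296 and 317 CPM in control, 288, 279.6 and 296 with siRNA1 and 277, 273 and 280.1 with siRNA2.

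Genes above control had a median level over the 3 groups of 27.2 CPM and those below of 35.3, against 19.6 CPM over all tested genes. Tested genes were split by mean level into 4 bins of equal size. In the lowest bin 8.83% lay above and 4.4% below. In the highest bin these shares were 15.7% and 17.5%. Protein-coding genes made up 91.3% of the genes above and 91.3% of those below, against 82.6% of all tested genes. Long intergenic RNAs lay above in 9.5% and below in 4.32%, and processed pseudogenes in 2.17% and 10.1%. A pseudogene can share reads with its parent gene, so these counts are uncertain.

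**Figure D1:**
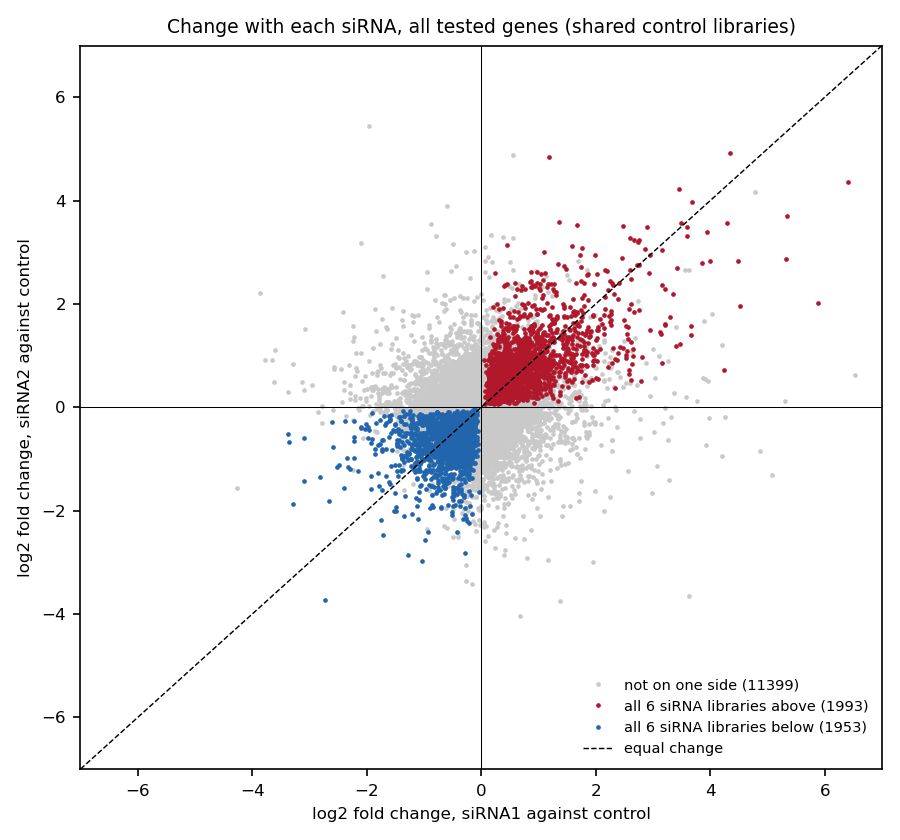
Log2 fold change against control with siRNA1 (horizontal axis) and siRNA2 (vertical axis) for the tested genes, 1 point a gene, with 4 genes outside the axes. The 1993 genes with all 6 siRNA libraries above control (red) and the 1953 below (blue) fill the upper right and lower left by the rule, and the dashed line marks equal change; both axes use the same control libraries.

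The test that the rule did not use is siRNA2 against siRNA1, which says whether the size of the response was equal. Over all tested genes 60.4% differed between the siRNAs at an adjusted p below 0.05 by edgeR's quasi-likelihood test. Among genes above control 1037 differed (52.0%), of which 566 lay farther from control with siRNA2 and 471 with siRNA1. Among genes below, 1095 differed (56.1%), 674 of them farther with siRNA2 and 421 with siRNA1. The median size of the log2 difference between siRNAs was 0.26 above control and 0.27 below, against 0.40 over all tested genes. The rule itself removes genes that the siRNAs moved apart, so these shares are descriptions. Outside the rule, 1524 genes were called in opposite directions with the siRNAs, 858 of them lower with siRNA1 and higher with siRNA2, and 503 of the 1524 were still called in the pooled contrast.

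Among genes above control with a mean of at least 5 CPM, those with the largest gap were ATOH8, SYT12, CEMIP, ANXA8, MEGF6, COL1A1, VSTM2L, LIPH, BMF, PDGFRB, CLIC3 and SCNN1A. They were chosen for their gap, so their values are given as a description. ATOH8, a basic helix-loop-helix transcription factor at chr2:85751344-85791383, stood at 1.17, 1.32 and 1.53 CPM in control, 15.2, 13.6 and 16.5 with siRNA1 and 16.2, 15.6 and 16.5 with siRNA2. All 6 siRNA libraries lay close together and far above control, and the pooled log2 change was 3.53 (SE 0.146). SYT12, a synaptotagmin of vesicle membranes, stood at 2.4, 1.85 and 1.82 CPM in control, 18.3, 15.9 and 20.3 with siRNA1 and 18.6, 14.7 and 16.9 with siRNA2. CEMIP, which binds hyaluronan and drives its breakdown, lies at chr15:80779343-80951776 and stood at 5.49, 6.46 and 3.46 CPM in control, 34.9, 42.9 and 39.6 with siRNA1 and 44.4, 35.8 and 38 with siRNA2. For CEMIP the siRNAs gave nearly the same change, 2.94 and 2.95 on the log2 scale, and their libraries overlapped.

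ANXA8, a calcium-dependent membrane-binding annexin, stood at 5.43, 6.2 and 6.46 CPM in control, 33.8, 37.1 and 39.2 with siRNA1 and 35.7, 38.3 and 40 with siRNA2. ANXA8 has a near-identical copy, ANXA8L1, and reads may be split between the copies, so its level is uncertain. MEGF6, a protein with many EGF-like repeats, stood at 1.73, 1.91 and 2.46 CPM in control, 33.8, 32.9 and 31.9 with siRNA1 and 18.1, 12.8 and 12.9 with siRNA2. Its siRNA1 libraries were all above its siRNA2 libraries, with a log2 difference (siRNA2 minus siRNA1, here and below) of -1.17. COL1A1, a chain of type I collagen, stood at 7.28, 9.63 and 7.8 CPM in control, 49.4, 41.6 and 44 with siRNA1 and 61.9, 62.9 and 58.7 with siRNA2. Its siRNA libraries were several times the control libraries, and highest with siRNA2. LIPH, a lipase that makes lysophosphatidic acid, stood at 11.5, 7.65 and 9.62 CPM in control, 51.4, 53.3 and 48.8 with siRNA1 and 54.2, 46.4 and 51.4 with siRNA2. BMF, a BH3-only protein that promotes apoptosis, stood at 5.61, 5.08 and 4.05 CPM in control, 46.7, 46.2 and 44.1 with siRNA1 and 28, 22.1 and 21.9 with siRNA2, again farther with siRNA1.

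The others had lower means over the 3 groups. PDGFRB, the beta receptor of platelet-derived growth factor, stood at 0.802, 1.65 and 1.23 CPM in control, 7.97, 7.01 and 7.69 with siRNA1 and 6.61, 6.44 and 7.44 with siRNA2. CLIC3, a chloride intracellular channel protein, stood at 0.802, 0.66 and 1.64 CPM in control, 6.2, 6.51 and 8.61 with siRNA1 and 7.73, 6.29 and 7.44 with siRNA2, with control replicate 3 above the other control libraries. VSTM2L, a secreted immunoglobulin-domain protein, stood at 1.67, 1.25 and 0.998 CPM in control, 14.3, 12.1 and 15.6 with siRNA1 and 8.21, 8.37 and 8.78 with siRNA2. SCNN1A, the alpha subunit of the epithelial sodium channel, stood at 1.54, 1.65 and 1.47 CPM in control, 6.26, 6.17 and 8.87 with siRNA1 and 8.53, 9.43 and 10.9 with siRNA2. In these genes control counts were few, and their fold changes are less precise than those of abundant genes. The same holds for ATOH8, with 19, 20 and 26 counts in control, and for SYT12 and MEGF6.

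Among genes below control with a mean of at least 5 CPM, which leaves out MILIP, the largest gaps were those of AXL, GJA1, OAF, CELF2, AOX1, SEPTIN7, HIGD2A, ALDH1B1, VEGFA, RFWD3, DUSP7 and SKA3. AXL, a receptor tyrosine kinase of mesenchymal breast cancer cells at chr19:41219223-41261766, stood at 997, 1040.1 and 971 CPM in control, 105, 98.6 and 106 with siRNA1 and 285, 271 and 263 with siRNA2. Its gap of 1.77 was the largest of these 12, and it kept 18.7% of control averaged over the siRNAs. Its 3' UTR holds the siRNA1 word, and it lay lower with siRNA1, at a log2 difference of 1.40 (adjusted p = 1.56e-16, edgeR). GJA1, the gap junction protein connexin 43, at chr6:121435595-121449727, holds neither word and stood at 25.1, 26.2 and 24.1 CPM in control, 7.4, 7.68 and 7.84 with siRNA1 and 3.52, 5.27 and 4.71 with siRNA2. VEGFA, the angiogenic growth factor, also holds neither and stood at 254, 247 and 244 CPM in control, 125, 119 and 125 with siRNA1 and 102, 95.2 and 96.8 with siRNA2. AOX1, an aldehyde oxidase, holds neither word and stood at 204, 204 and 189 CPM in control, 56.9, 59.5 and 54.3 with siRNA1 and 84.6, 83 and 79.7 with siRNA2.

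OAF, a secreted protein, holds both words and stood at 107, 114 and 105 CPM in control, 35.8, 31.7 and 40 with siRNA1 and 41.2, 40.5 and 35.4 with siRNA2. CELF2, an RNA-binding splicing regulator, stood at 15.8, 14.9 and 14.1 CPM in control, 5.19, 5.38 and 4.15 with siRNA1 and 5.17, 5.88 and 5.35 with siRNA2. ALDH1B1, a mitochondrial aldehyde dehydrogenase, stood at 44.1, 49.7 and 46.3 CPM in control, 18.7, 18.1 and 16.3 with siRNA1 and 19, 21.7 and 19.3 with siRNA2. Both hold the siRNA1 word. SEPTIN7, a GTP-binding protein of septin filaments, holds the siRNA2 word and stood at 185, 164 and 185 CPM in control, 68.6, 73.9 and 68.1 with siRNA1 and 41.4, 42 and 40.6 with siRNA2. RFWD3, a ubiquitin ligase of the replication stress response, also holds it and stood at 167, 166 and 154 CPM in control, 76.4, 79.2 and 77.2 with siRNA1 and 55, 57.7 and 56.6 with siRNA2. HIGD2A, a factor in respiratory chain assembly, holds neither word and stood at 74.2, 76.8 and 77.5 CPM in control, 33.9, 30 and 34.4 with siRNA1 and 18, 17.7 and 18.6 with siRNA2. DUSP7, a phosphatase of ERK kinases, holds neither and stood at 94.6, 97.7 and 86.6 CPM in control, 44.6, 40.5 and 44 with siRNA1 and 21.4, 21.6 and 19.4 with siRNA2. With SKA3, 7 of these 12 genes hold a word. SEPTIN7 and RFWD3, with the siRNA2 word, were lower with siRNA2 (log2 differences -0.76 and -0.46), while in CELF2 and OAF the siRNA groups overlapped. GJA1, VEGFA, HIGD2A and DUSP7 hold neither word and were lower with siRNA2 too, by -0.76, -0.33, -0.86 and -1.05. AOX1, also with neither, was lower with siRNA1 (0.53).

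**Figure D2:**
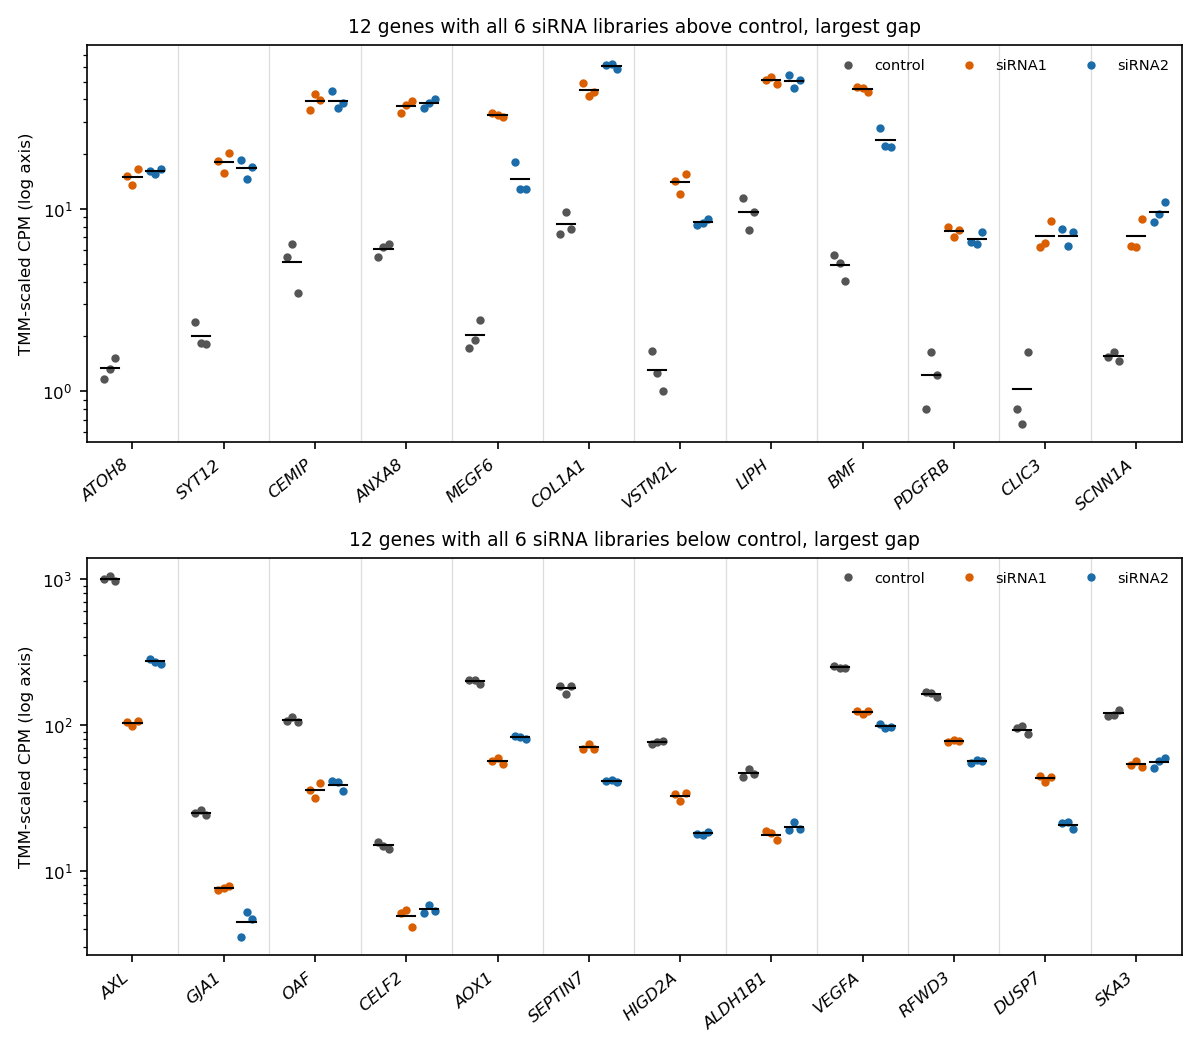
TMM-scaled CPM (log axis) in each of the 9 libraries for the 12 genes above and the 12 below control with the largest gap among genes with a mean of at least 5 CPM (MILIP is below that), dots for libraries and black lines for group means. ATOH8 and AXL come first in the panels, and no siRNA library overlaps a control library, as the rule requires.

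Genes of at least 2-fold change whose response was nearest to equal with the siRNAs were chosen for that, so no test is attached. Above control they were CEMIP, LIPH, CLIC3, PLXND1, JUP and VSIR. PLXND1, a semaphorin receptor, stood at 139, 129 and 116 CPM in control, 274, 264 and 289 with siRNA1 and 267, 272 and 280.2 with siRNA2. JUP, plakoglobin of desmosomes and adherens junctions, stood at 34.8, 34.4 and 33.9 CPM in control, 104, 92.9 and 115 with siRNA1 and 103, 100.5 and 114 with siRNA2. VSIR, the immune checkpoint protein VISTA, stood at 3.39, 5.08 and 3.52 CPM in control, 17.3, 16.7 and 19.4 with siRNA1 and 17.5, 15.5 and 19.1 with siRNA2. In each of these the siRNA groups overlapped, and the log2 difference between siRNAs was -0.01, 0.03 and -0.04.

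Below control the equal group was SKA3, PITPNC1, WDR35, PRKX, RAB38 and RASA2. SKA3, of the kinetochore complex that holds microtubules, stood at 116, 118 and 127 CPM in control, 53.2, 56.4 and 51.8 with siRNA1 and 50.6, 56.3 and 59.7 with siRNA2. WDR35, of the intraflagellar transport machinery, stood at 76.2, 69 and 66.4 CPM in control, 34.2, 37.2 and 34.5 with siRNA1 and 32.9, 35.8 and 36 with siRNA2. RAB38, a small GTPase of organelle transport, stood at 19.8, 19.6 and 22.4 CPM in control, 8.98, 8.58 and 8.92 with siRNA1 and 8.8, 8.67 and 10.5 with siRNA2. SKA3, WDR35 and PRKX hold the siRNA1 word, RASA2 holds both, and PITPNC1 and RAB38 hold neither. RASA2, a RAS GTPase-activating protein, stood at 19.1, 15.9 and 14.4 CPM in control, 6.01, 8.75 and 7.43 with siRNA1 and 7.52, 7.5 and 8.55 with siRNA2. PRKX, a kinase related to protein kinase A, stood at 11.5, 9.83 and 8.74 CPM in control, 3.54, 5.1 and 4.97 with siRNA1 and 4.27, 5.02 and 5.12 with siRNA2. PITPNC1, a phosphatidylinositol transfer protein, stood at 8.32, 11.6 and 10 CPM in control, 4.17, 4.77 and 4.2 with siRNA1 and 3.47, 4.72 and 4.89 with siRNA2.

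At the other end, some genes lay on one side with very unequal change. TNFRSF1B, the second receptor for tumour necrosis factor, stood at 16.8, 15.4 and 12.9 CPM in control, 21.1, 17.8 and 22.3 with siRNA1 and 133, 135 and 126 with siRNA2. HMGCS1, an enzyme of cholesterol synthesis, stood at 70.8, 61.5 and 63.1 CPM in control, 76.1, 83.2 and 71.5 with siRNA1 and 407, 384 and 394 with siRNA2. In both the siRNA1 libraries sat just above control and the siRNA2 libraries far above. FGFR3, a fibroblast growth factor receptor, went the other way, at 3.52, 4.62 and 2.76 CPM in control, 38.2, 37.7 and 43.6 with siRNA1 and 8.85, 7.61 and 8.78 with siRNA2. Below control, TXNDC5, a protein disulfide isomerase of the endoplasmic reticulum, stood at 38.2, 43.9 and 36.4 CPM in control, 4.3, 3.48 and 3.69 with siRNA1 and 28.5, 28.3 and 25.4 with siRNA2. LCP1, the actin-bundling protein L-plastin, stood at 815, 804 and 773 CPM in control, 79.5, 80.1 and 73.6 with siRNA1 and 508, 499.8 and 499 with siRNA2. MBD2, a reader of methylated DNA, stood at 32.5, 32.4 and 31 CPM in control, 22.8, 30 and 26.1 with siRNA1 and 5.33, 4.06 and 4.13 with siRNA2. TXNDC5 and LCP1 hold the siRNA1 word and were lowest with siRNA1, and MBD2 holds both and was lowest with siRNA2. These genes were chosen for their difference.

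Outside the rule, the widest opposite responses were those of CSF3, CXCL3, CTDSPL and MTUS1, chosen for that. CSF3, the growth factor of granulocytes, stood at 775, 800.3 and 836 CPM in control, 240.1, 203 and 222 with siRNA1 and 3444, 2719.9 and 2816 with siRNA2. Its siRNA1 libraries lay far below control and the siRNA2 libraries far above. CXCL3, a chemokine for neutrophils, did likewise, at 62.8, 61.1 and 64.1 CPM in control, 20.5, 19.6 and 19.1 with siRNA1 and 204, 178 and 172 with siRNA2. CTDSPL, a small phosphatase of transcription, went the other way, at 54.6, 58.2 and 62.4 CPM in control, 158, 153 and 157 with siRNA1 and 13.9, 13.6 and 13.1 with siRNA2. MTUS1, a microtubule-associated protein, followed CTDSPL, at 16, 15.8 and 14.4 CPM in control, 32.5, 38.2 and 32.9 with siRNA1 and 4.8, 4.61 and 4.42 with siRNA2. In the pooled contrast their log2 changes were 0.02, -0.06, -0.35 and -0.28, which average opposite responses.

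**Figure D3:**
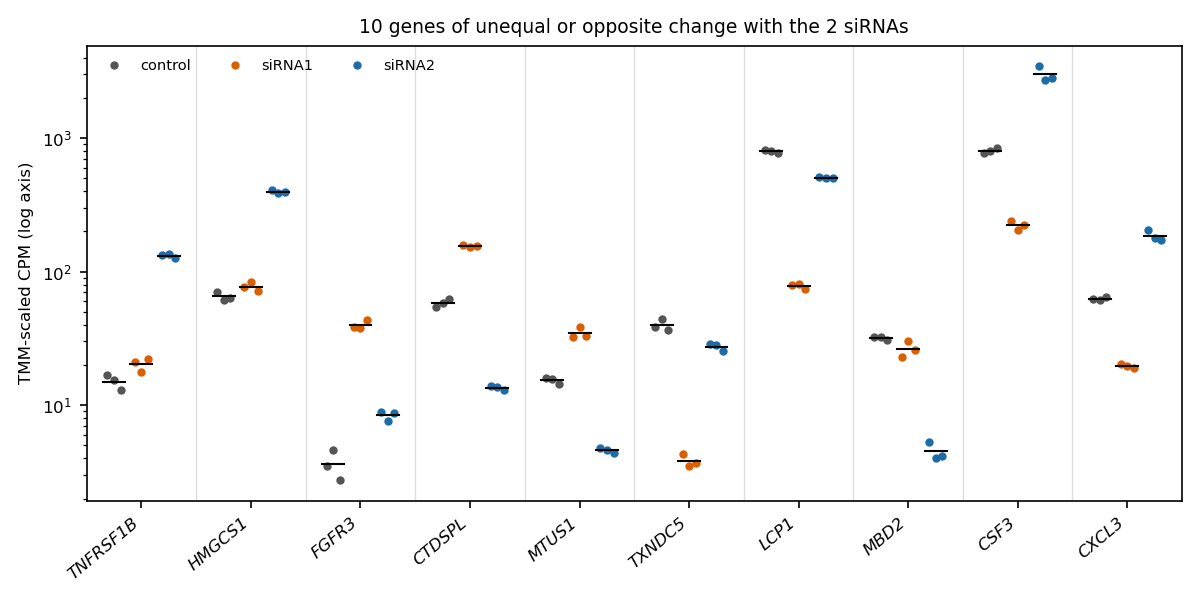
TMM-scaled CPM (log axis) per library for 6 genes on one side of control with the most unequal change and 4 genes that the siRNAs moved in opposite directions, dots for libraries and black lines for group means. For TNFRSF1B the control libraries span 12.9 to 16.8, siRNA1 17.8 to 22.3 and siRNA2 126 to 135 CPM.

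The gene lists below were taken whole, so their counts cover members that met the rule and members that did not. Each is read against 24.2% called higher and 27.8% called lower among all tested genes, and against 13% and 12.7% on one side. The spread in the main fit is that within groups. When the 6 siRNA libraries are treated as 1 group, their difference enters the spread, and 1423 genes were called higher and 1155 lower in place of 3713 and 4273. Counts under that fit are given beside each list where they move by over 1.5 times. Those counts are read against 1423 and 1155 of 15345 tested genes, not against the shares of the main fit. Over all genes without either word, 3246 were called higher and 3131 lower, with 1782 above control and 1426 below. List counts without genes holding either word are read against these.

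**Figure D4:**
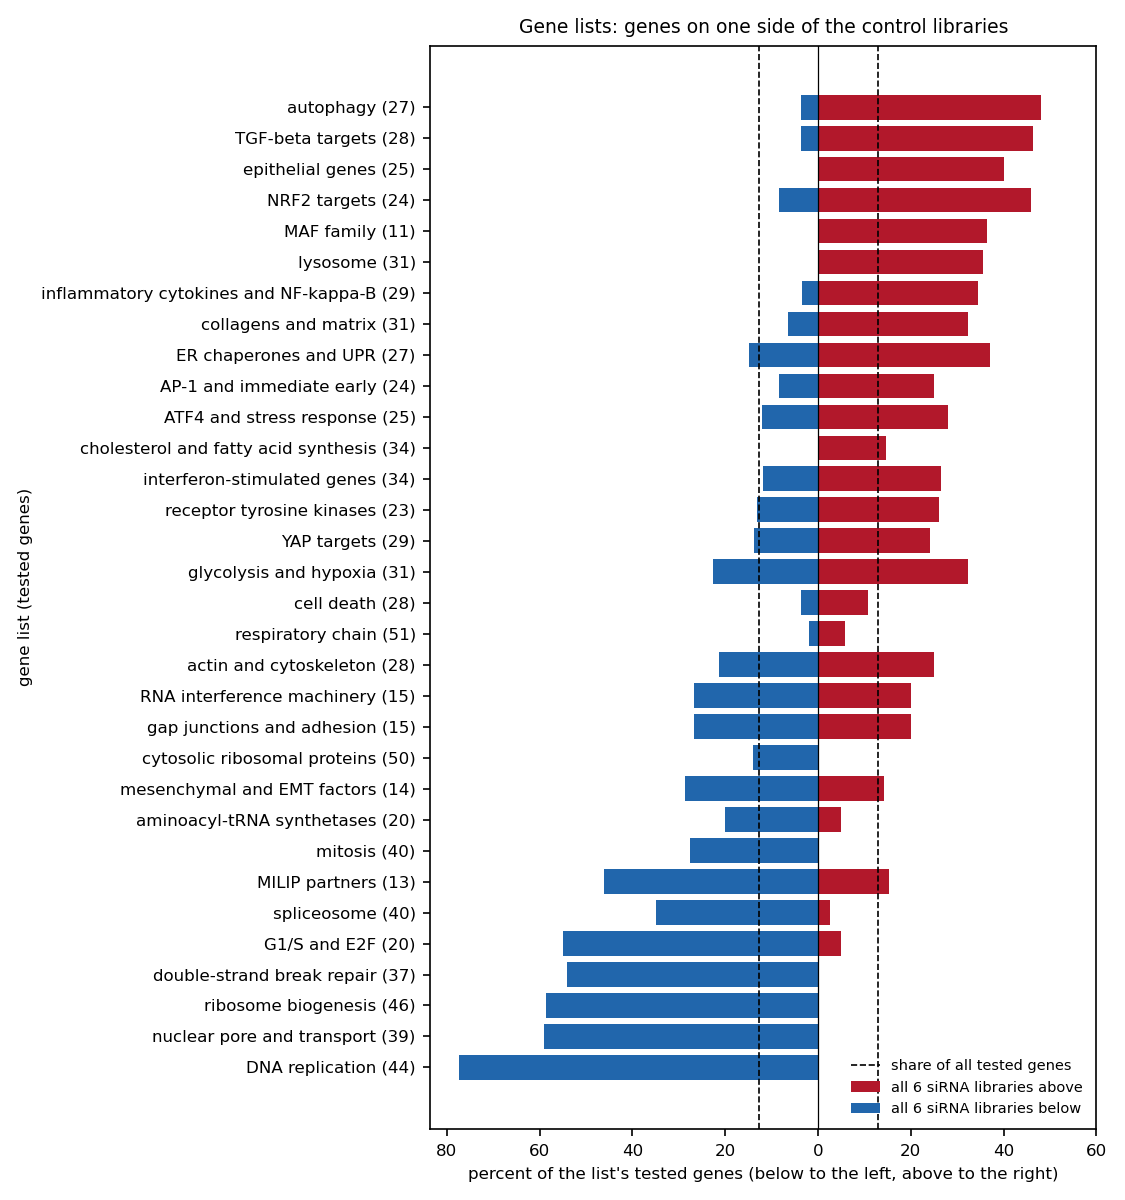
Percent of each list's tested genes with all 6 siRNA libraries above (red, to the right) or below control (blue, to the left), with the number of tested genes in brackets and dashed lines at the shares of all tested genes, 13% above and 12.7% below. DNA replication has the largest share below, 34 of 44, and 0 above; autophagy has 13 of 27 above.

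DNA replication genes fell with both siRNAs. Of 44 tested, 42 were called lower and 0 higher, 34 lay below control in all 6 siRNA libraries, and the median pooled log2 change was -0.55. The median was -0.44 with siRNA1 and -0.63 with siRNA2. Between the siRNAs 29 of 44 differed, against 60.4% of all tested genes. The list holds the MCM helicase, its loaders and activators, the polymerases and clamp, and nucleotide synthesis. With the siRNAs as 1 group 27 were called lower and 0 higher. MCM3, a subunit of the MCM helicase, stood at 558, 569 and 589 CPM in control, 337, 327 and 332 with siRNA1 and 323, 348 and 340.4 with siRNA2. Control and siRNA libraries were far apart, and the pooled log2 change was -0.77 (SE 0.0443). MCM6, another subunit, holds the siRNA1 word and stood at 143, 145 and 144 CPM in control, 79.7, 90 and 87.4 with siRNA1 and 75.9, 77.4 and 79 with siRNA2. All 6 MCM2 to MCM7 subunits lay below control, from -0.82 for MCM6 to -0.55 for MCM2.

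GINS2, of the GINS complex that joins MCM to CDC45, holds the siRNA1 word and stood at 32.4, 38.1 and 38.8 CPM in control, 21.8, 18.6 and 18 with siRNA1 and 18.8, 20.6 and 20.2 with siRNA2. CDC45 stood at 81.3, 90.1 and 91.5 CPM in control, 52.7, 48.6 and 57.3 with siRNA1 and 51.6, 53.8 and 50.4 with siRNA2. For MCM3, GINS2 and CDC45 the siRNA groups overlapped or nearly so, with log2 differences between siRNAs of 0.02, 0.03 and -0.03. In RPA1 and POLA1 the pooled change was larger but unequal. RPA1, a subunit of the single-strand binding protein RPA, had -0.16 with siRNA1 and -2.07 with siRNA2. POLA1, the catalytic subunit of the priming polymerase, had -0.67 and -1.52. PCNA, the sliding clamp, had -0.65 and -0.57. FEN1, the flap nuclease, had -0.28 and -0.97. The 2 members not called were RPA2 (pooled log2 -0.06, adjusted p = 0.368) and TIMELESS (-0.11, adjusted p = 0.0983, edgeR).

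E2F factors bind many replication promoters, and 2 words of that kind, TTTCCCGC and TTTGGCGC, were searched on both strands in RefSeq promoter windows (GRCh38.p14) from 250 bases before to 50 after the start. Of tested genes 11112 had such a window. Either word stood in 3.67% of these, in 2.47% of windows of genes above control, in 6.7% of those below, and in 14 of 36 windows of the replication list (38.9%). Among replication genes below control 13 of 28 held one (46.4%). The 150 bases before the start are shown for 3 of them that lay below control, MCM6, GINS2 and PCNA, with the words in capitals. GCGGGAAA and GCGCCAAA are the same words on the opposite strand.
MCM6 promoter, chr2:135876444-135876593, minus strand: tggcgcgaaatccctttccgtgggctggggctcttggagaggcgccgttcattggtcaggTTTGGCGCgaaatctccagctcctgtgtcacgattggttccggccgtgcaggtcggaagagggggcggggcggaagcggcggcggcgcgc
GINS2 promoter, chr16:85688955-85689104, minus strand: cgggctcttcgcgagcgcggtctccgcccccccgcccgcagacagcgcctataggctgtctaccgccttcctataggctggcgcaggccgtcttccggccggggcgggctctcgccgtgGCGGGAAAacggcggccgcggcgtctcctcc
PCNA promoter, chr20:5126623-5126772, minus strand: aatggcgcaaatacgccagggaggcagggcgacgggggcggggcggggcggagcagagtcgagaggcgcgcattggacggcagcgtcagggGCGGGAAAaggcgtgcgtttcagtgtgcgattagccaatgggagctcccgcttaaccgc
MCM6 has a second such word 152 bases before its start, partly outside the stretch shown, while GINS2 and PCNA have 1 each, 31 and 59 bases before the start. A match is a description of the sequence and says nothing of binding here.

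**Figure D5:**
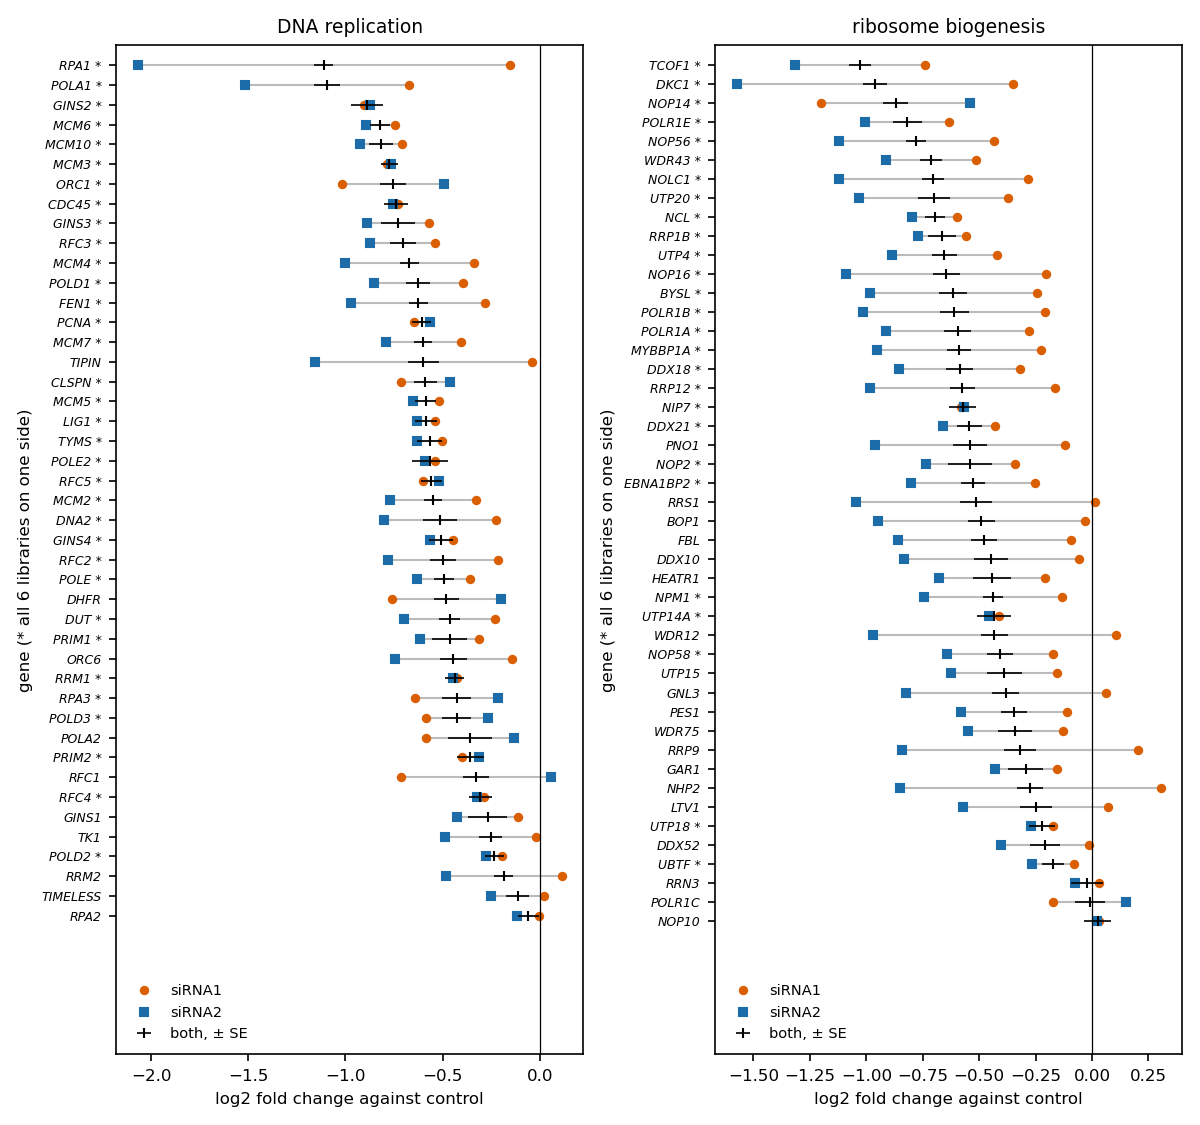
Log2 fold change against control for every tested gene of the DNA replication (44) and ribosome biogenesis (46) lists, with siRNA1 as orange circles, siRNA2 as blue squares and the pooled value as a black bar with its SE; stars mark genes with all 6 siRNA libraries on one side. Most replication genes are left of 0 with both siRNAs, and the ribosome biogenesis genes lie farther left with siRNA2.

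Genes of the G1 to S transition followed in part. Of 20 tested, 16 were called lower and 2 higher (7 and 0 with the siRNAs as 1 group), and 11 lay below control in every siRNA library. E2F8, a repressive E2F, stood at 31.9, 33.8 and 35.2 CPM in control, 15.5, 17 and 14.9 with siRNA1 and 13.2, 16.2 and 15.4 with siRNA2. CDK2, the kinase of S phase entry, stood at 94.4, 102 and 97.9 CPM in control, 49.5, 56.5 and 57.9 with siRNA1 and 45.3, 43.9 and 46.8 with siRNA2. CCNE2, cyclin E2, stood at 18.4, 18.3 and 17.1 CPM in control, 10.8, 9.37 and 8.56 with siRNA1 and 7.04, 9.13 and 8.26 with siRNA2. CDC6, which loads MCM onto origins, stood at 181, 173 and 184 CPM in control, 129, 132 and 128 with siRNA1 and 118, 133 and 131 with siRNA2, with the siRNA groups overlapping.

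Of 37 genes of double-strand break repair, 27 were called lower and 1 higher (18 and 0 with the siRNAs as 1 group), and 20 lay below control. EXO1, the nuclease that resects DNA ends, stood at 42.8, 45.2 and 40.1 CPM in control, 21.9, 23.5 and 22.2 with siRNA1 and 22.2, 27.4 and 27.8 with siRNA2. RAD54L, a motor of homologous recombination, stood at 35, 30.9 and 32.2 CPM in control, 16, 15.8 and 19 with siRNA1 and 19.7, 22.3 and 20.9 with siRNA2. FANCI, of the crosslink repair complex, stood at 134, 134 and 130.4 CPM in control, 92.3, 100.3 and 93.7 with siRNA1 and 85.9, 93.3 and 93.2 with siRNA2. BLM, the helicase lost in Bloom syndrome, stood at 23.6, 20.3 and 22.8 CPM in control, 12.6, 16.2 and 13.4 with siRNA1 and 10.7, 13.1 and 13.6 with siRNA2. Mitosis genes were less uniform in position: of 40, 26 were called lower and 1 higher (7 and 0 as 1 group), but only 11 lay below control in all 6 libraries, or 18 without siRNA1 replicate 2. NCAPH, a condensin subunit, stood at 107, 109 and 108 CPM in control, 74.6, 79.5 and 78.5 with siRNA1 and 62, 67.2 and 65.1 with siRNA2. SPC25, of the kinetochore, stood at 22, 21.6 and 23.1 CPM in control, 13.4, 15.5 and 15.3 with siRNA1 and 10.6, 10.3 and 8.61 with siRNA2. Over the list, the median log2 change was -0.06 with siRNA1 and -0.49 with siRNA2. BUB3, of the spindle checkpoint, stood at 475, 485 and 489 CPM in control, 380.1, 384 and 391 with siRNA1 and 347, 353 and 358 with siRNA2, and it holds the siRNA1 word.

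Ribosome biogenesis genes fell, mainly with siRNA2. Of 46 tested, 43 were called lower and 0 higher, and 27 lay below control in all 6 libraries. The median log2 change was -0.19 with siRNA1 and -0.83 with siRNA2, and 41 of 46 differed between the siRNAs. With the siRNAs as 1 group 13 were called lower and 0 higher. NCL, nucleolin, stood at 1140.5, 1155 and 1234 CPM in control, 776, 794 and 763 with siRNA1 and 669.5, 698 and 666 with siRNA2. TCOF1, the treacle protein that serves ribosomal RNA synthesis, stood at 218, 233 and 235 CPM in control, 138, 135 and 138 with siRNA1 and 89.9, 95.9 and 89.3 with siRNA2. POLR1E, a subunit of RNA polymerase I, stood at 67.6, 72.5 and 62.9 CPM in control, 42.6, 44.1 and 44 with siRNA1 and 31, 35.3 and 34.9 with siRNA2. WDR43, of the small subunit processome, stood at 174, 170.0 and 171 CPM in control, 120.5, 125 and 116 with siRNA1 and 92.9, 93.7 and 87.2 with siRNA2. In all 4 the siRNA1 libraries lay between control and siRNA2. NCL, TCOF1, POLR1E and WDR43 hold neither word.

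The cytosolic ribosomal proteins show how a pooled call and the one-side rule can part. Of 50 tested, 43 were called lower and 0 higher, yet only 7 lay below control in all 6 libraries, close to the share of all tested genes. The 43 became 29 without control replicate 3, the highest control library for both genes given below. Their median log2 change was 0.04 with siRNA1 and -0.41 with siRNA2, and 1 was called lower when the siRNAs were 1 group. RPL23 stood at 628, 609 and 685 CPM in control, 555, 552 and 551 with siRNA1 and 533, 526 and 552 with siRNA2. RPS6 stood at 750.0, 774 and 840.2 CPM in control, 727, 698 and 699 with siRNA1 and 491, 495 and 482 with siRNA2, where siRNA1 sat just under control.

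Splicing and nuclear transport genes also lay low. Of 40 spliceosome genes 28 were called lower and 2 higher (7 and 1 as 1 group), and 14 lay below control. PRPF4, of the U4/U6 particle, stood at 95.3, 94.6 and 94.7 CPM in control, 56.2, 55.9 and 53.7 with siRNA1 and 54.8, 55.1 and 54.1 with siRNA2, with the 6 siRNA libraries within 53.7 to 56.2 CPM. Of 39 nuclear pore and transport genes 29 were called lower and 0 higher (14 and 0 as 1 group), and 23 lay below. RCC1, the exchange factor that charges RAN, stood at 136, 153 and 155 CPM in control, 92.2, 89.7 and 90.4 with siRNA1 and 83.7, 86.7 and 89.3 with siRNA2. NUP188, an inner ring nucleoporin, stood at 364, 367 and 319 CPM in control, 235, 240.0 and 224 with siRNA1 and 224, 233 and 228 with siRNA2. CSE1L, the exporter of importin alpha, holds the siRNA1 word and stood at 333, 328 and 332 CPM in control, 120.4, 134 and 119 with siRNA1 and 231, 247 and 245 with siRNA2. Of 20 aminoacyl-tRNA synthetases 10 were called lower and 3 higher (3 and 1 as 1 group), with 4 below and 1 above control, and 1 was called higher without control replicate 1. The 1 above was CARS1, the cysteine enzyme, at 116, 119 and 124 CPM in control, 196, 187 and 190.3 with siRNA1 and 149, 141 and 149 with siRNA2.

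Among the groups that rose, TGF-beta targets had 20 of 28 called higher and 1 lower (11 and 1 as 1 group), with 13 above control in all 6 libraries and a median log2 change of 0.58. TGFBI, a matrix protein named for its induction by TGF-beta, stood at 16.1, 16.2 and 15.7 CPM in control, 60.1, 58 and 53.7 with siRNA1 and 45.1, 46.5 and 44.4 with siRNA2. ID3, an inhibitor of helix-loop-helix factors, stood at 55.9, 58 and 60.2 CPM in control, 169, 168 and 168 with siRNA1 and 161, 147 and 139 with siRNA2. PMEPA1, which dampens TGF-beta signalling, stood at 2.9, 3.17 and 2.17 CPM in control, 10.3, 7.35 and 12.3 with siRNA1 and 13.9, 10.6 and 10.2 with siRNA2. An exception was VEGFA, the 1 member called lower. The median change of the list was 0.20 with siRNA1 and 0.97 with siRNA2.

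Collagen and matrix genes had 17 of 31 called higher and 7 lower (9 and 2 as 1 group), with 10 above and 2 below control, the 2 becoming 4 without control replicate 3. Their median log2 change was -0.03 with siRNA1 and 0.62 with siRNA2, and 8 were called in opposite directions. COL5A1, a chain of type V collagen, stood at 77.6, 82.6 and 69.5 CPM in control, 144, 153 and 144 with siRNA1 and 389.7, 399.8 and 375 with siRNA2. COL18A1, the source of endostatin, stood at 63.6, 69.5 and 64.1 CPM in control, 142, 134 and 140.0 with siRNA1 and 110.1, 109.6 and 101 with siRNA2. COL4A1, of basement membrane collagen, went the other way, at 76.8, 81.3 and 71.1 CPM in control, 42.1, 47 and 42.1 with siRNA1 and 39.6, 45.4 and 40.9 with siRNA2. Fibroblast markers, 10 genes, had a summed level of 11.6 to 14.2 CPM in control libraries, 50.9 to 59.5 with siRNA1 and 72.8 to 75.1 with siRNA2. POSTN was at 0 in every library, most of the sum was COL1A1, itself a member of the collagen list with means of 8.24, 45.0 and 61.2 CPM, and COL1A2 had means of 0, 0.0592 and 2.06 CPM. THY1, a surface marker of fibroblasts, holds the siRNA2 word and lay below control, at 3.52, 2.9 and 3.34 CPM in control, 1.83, 2.3 and 1.95 with siRNA1 and 2.08, 1.93 and 2.85 with siRNA2. Any part of other cells in the collagen values was not tested. In bulk RNA, fewer cells of a type and less RNA per cell cannot be told apart.

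Epithelial genes had 16 of 25 called higher and 2 lower (9 and 0 as 1 group), with 10 above control and 0 below. JUP, given above, is one of the 10. ELF3, an epithelial ETS factor, stood at 0.802, 0.857 and 0.998 CPM in control, 4.49, 4.54 and 4.31 with siRNA1 and 3.47, 3.7 and 5.18 with siRNA2. SPINT1, an inhibitor of surface serine proteases, stood at 2.84, 4.02 and 2.93 CPM in control, 13, 14.7 and 14.4 with siRNA1 and 10.7, 9.03 and 10.1 with siRNA2. GRHL3, a grainyhead factor, had 2, 0 and 1 counts in control libraries and 29, 63 and 58 with siRNA1 and 19, 20 and 11 with siRNA2. KRT8, a keratin of simple epithelia, had means of 464, 1065 and 581 CPM, and CDH1, E-cadherin, had means of 0.601, 1.8 and 1.1 CPM. The epithelial marker EPCAM was not called (pooled log2 -0.36, adjusted p = 0.0542, edgeR).

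Mesenchymal and EMT factors had 9 of 14 called lower and 3 higher, with 4 below and 2 above control. The median log2 change was -0.76 with siRNA1 but 0.28 with siRNA2. Of the 14, 11 differed between the siRNAs and 5 were called in opposite directions. The 9 became 5 without control replicate 2, 2 with the siRNAs as 1 group, and 3 without genes holding either word, where 0 of the 4 below control are left. ZEB1, a repressor of epithelial genes, stood at 84.7, 86.3 and 71.8 CPM in control, 45.3, 45.3 and 42 with siRNA1 and 60, 63.5 and 60.9 with siRNA2. ZEB1 holds the siRNA1 word, as AXL does. SNAI1, another such repressor, rose to 6.13, 6.95 and 6.1 CPM with siRNA1 and 6.51, 5.88 and 4.83 with siRNA2 from 1.73, 1.91 and 1.35 in control libraries. S100A4, a calcium-binding protein of motile cells, stood at 138, 139.7 and 166 CPM in control, 219.6, 210.3 and 221 with siRNA1 and 223, 225 and 235 with siRNA2. VIM, vimentin, was called lower but stayed abundant, with means of 4774, 4613 and 4068 CPM. The summed mesenchymal markers of the line (8 genes) were 7683 to 8142 CPM in control libraries, 5827 to 6135 with siRNA1 and 6387 to 6463 with siRNA2, and the summed epithelial markers 1064 to 1236, 1950 to 2257 and 1223 to 1262.

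Adhesion, cytoskeleton and YAP target lists split. Of 15 gap junction and adhesion genes 3 were called higher and 5 lower (1 and 3 as 1 group), with 3 above and 4 below control, and the 5 became 3 without genes holding either word. CDH4, R-cadherin, stood at 106, 134 and 108 CPM in control, 56.4, 53.3 and 54.7 with siRNA1 and 60.7, 62.8 and 61.9 with siRNA2. L1CAM, an adhesion molecule of neurons and tumours, stood at 19.4, 22.3 and 23.4 CPM in control, 47.1, 41.8 and 45 with siRNA1 and 33.8, 33.1 and 31.5 with siRNA2. Of 28 actin and cytoskeleton genes 10 were called higher and 13 lower (6 and 5 as 1 group), with 7 above and 6 below. TPM1, tropomyosin, stood at 64.1, 68.6 and 69 CPM in control, 131, 139.8 and 137 with siRNA1 and 127, 132 and 125 with siRNA2 and holds the siRNA1 word. FSCN1, the actin bundler fascin, stood at 181, 188 and 186 CPM in control, 323, 279 and 321 with siRNA1 and 237, 226 and 223 with siRNA2. Of 29 YAP targets 10 were called higher and 11 lower (5 and 3 as 1 group), and the 11 became 8 without control replicate 1 and 6 without genes holding either word. CCN1, a matricellular YAP target, stood at 654, 659.9 and 665 CPM in control, 883, 847 and 882 with siRNA1 and 1217, 1096 and 1032 with siRNA2.

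Most autophagy genes rose. Of 27 tested, 19 were called higher and 3 lower (10 and 1 as 1 group), with 13 above control and 1 below. Without genes holding either word 1 was called lower. GABARAPL1, a lipidated protein of the autophagosome membrane, stood at 14.6, 13.2 and 13.9 CPM in control, 33.8, 34 and 35.1 with siRNA1 and 68.4, 58.7 and 61.1 with siRNA2. GABARAP stood at 36.5, 30.4 and 38.3 CPM in control, 62.9, 60.5 and 63 with siRNA1 and 68.5, 61 and 67 with siRNA2. ULK1, the kinase that starts autophagy, stood at 27.4, 27.2 and 26.5 CPM in control, 47.5, 42.8 and 45.2 with siRNA1 and 98.5, 93.3 and 90.2 with siRNA2. OPTN, optineurin, stood at 97.2, 97.9 and 98.4 CPM in control, 153, 166 and 160.3 with siRNA1 and 229.6, 232 and 236 with siRNA2. For ULK1 and OPTN the siRNA1 libraries lay between control and siRNA2. Lysosome genes had 22 of 31 called higher and 1 lower (7 and 0 as 1 group), with 11 above and 0 below. Their median log2 change was 0.07 with siRNA1 and 0.45 with siRNA2, and 8 were called in opposite directions. CTSD, the protease cathepsin D, stood at 327, 338 and 356 CPM in control, 769, 678 and 812 with siRNA1 and 598, 543 and 577 with siRNA2. PSAP, the precursor of the saposins, stood at 947, 934 and 979 CPM in control, 1492, 1397 and 1462 with siRNA1 and 1656, 1507 and 1508 with siRNA2. NPC2, a cholesterol carrier, stood at 102, 111 and 119.8 CPM in control, 196, 178 and 189 with siRNA1 and 165, 159.7 and 163 with siRNA2.

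Endoplasmic reticulum chaperones and unfolded protein response genes had 20 of 27 called higher and 4 lower (7 and 3 as 1 group), with 10 above and 4 below control. The median log2 change of the list was -0.04 with siRNA1 and 0.46 with siRNA2, and 4 genes were called in opposite directions. HSPA5, the chaperone BiP, stood at 805, 799 and 811 CPM in control, 1135, 1113 and 1102 with siRNA1 and 1974, 1729 and 1786 with siRNA2. DNAJB9, its co-chaperone, stood at 9.19, 8.51 and 9.68 CPM in control, 14.4, 17.2 and 14.8 with siRNA1 and 37.1, 31.7 and 34.5 with siRNA2. XBP1, a transcription factor of the response, stood at 54.9, 47.5 and 53.5 CPM in control, 79.6, 79.1 and 84.8 with siRNA1 and 75.3, 75.2 and 71.1 with siRNA2. Called lower were 4 genes, DNAJC3, ERN1, SERP1 and TXNDC5, and each holds a word. ATF4 and stress response genes had 11 of 25 called higher and 6 lower (7 and 3 as 1 group), with 7 above and 3 below. GDF15, a stress cytokine, stood at 17.1, 14.8 and 16.4 CPM in control, 72.9, 60.3 and 71.1 with siRNA1 and 55, 49 and 55.5 with siRNA2. CHAC1, which degrades glutathione, stood at 8.32, 7.39 and 8.51 CPM in control, 26.3, 21.9 and 25.6 with siRNA1 and 31.8, 27.4 and 27.7 with siRNA2. In both every siRNA library was above control. SLC7A5, the amino acid exchanger LAT1, stood at 611, 636 and 579 CPM in control, 1217, 1165 and 1200.0 with siRNA1 and 1234, 1168 and 1155 with siRNA2. PSAT1, of serine synthesis, is a target of the same pathway and went the opposite way, at 149, 132 and 139 CPM in control, 57.5, 56.6 and 59 with siRNA1 and 68.2, 68.5 and 70.1 with siRNA2.

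NRF2 targets, the antioxidant genes that small MAF proteins help to switch on, had 16 of 24 called higher and 4 lower (6 and 1 as 1 group), with 11 above and 2 below control. FTH1, ferritin heavy chain, stood at 2023, 2026 and 2053 CPM in control, 3222, 2774 and 2966 with siRNA1 and 3778, 3094 and 3046 with siRNA2. AKR1C2, an aldo-keto reductase with close paralogs that may share its reads, stood at 0.802, 0.528 and 0.646 CPM in control, 2.85, 2.3 and 1.69 with siRNA1 and 2.45, 2.03 and 2.21 with siRNA2. PGD, of the pentose phosphate pathway, lay below control, at 281, 281 and 299 CPM in control, 156, 146 and 151 with siRNA1 and 231, 216 and 224 with siRNA2. In the MAF family list 7 of 11 were called higher and 0 lower (3 and 0 as 1 group), with 4 above control, MAFG, MAFA, NFE2L2 and NFE2L3. NFE2L2, which encodes NRF2 itself, stood at 88, 87.9 and 89.7 CPM in control, 109.8, 116 and 109 with siRNA1 and 113, 116 and 118 with siRNA2. NFE2L3, a related factor, stood at 86.1, 89.2 and 84.9 CPM in control, 112, 116 and 117 with siRNA1 and 93.4, 93.9 and 97.7 with siRNA2. MAFA, a large MAF factor, was close to absent in control, with 0, 2 and 2 counts. It had 29, 26 and 42 counts with siRNA1, and 44, 63 and 45 with siRNA2.

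Of 13 genes that have been linked to MILIP, 3 were called higher and 9 lower (2 and 4 as 1 group), with 2 above and 6 below control. YBX1, an RNA-binding protein, holds the siRNA1 word and stood at 714, 697 and 754 CPM in control, 378, 363 and 376 with siRNA1 and 447, 454 and 443 with siRNA2. MYC stood at 120.2, 129 and 126 CPM in control, 119, 109 and 112 with siRNA1 and 87.5, 86.6 and 82.9 with siRNA2, below control by a gap of 0.02. MDM2, a ubiquitin ligase, holds the siRNA1 word and stood at 46.6, 43.5 and 39.7 CPM in control, 28, 32.2 and 28.7 with siRNA1 and 32, 35.1 and 36.9 with siRNA2. XRCC5, which encodes a Ku protein of end joining, stood at 466, 451 and 454 CPM in control, 343, 376 and 347 with siRNA1 and 342, 349.5 and 347 with siRNA2. XRCC6, for its partner in the Ku dimer, stood at 489, 492 and 529 CPM in control, 421, 434 and 431 with siRNA1 and 211, 209 and 205 with siRNA2. TRIML2, a TRIM family protein, stood at 13.9, 15 and 15.7 CPM in control, 33.9, 29.2 and 32.1 with siRNA1 and 43.1, 37.1 and 42.7 with siRNA2. G3BP2, a stress granule protein, was on neither side, with log2 changes of -0.83 with siRNA1 and 0.52 with siRNA2. CDKN1A, p21, stood at 185, 192 and 176 CPM in control, 178, 167 and 166 with siRNA1 and 456, 429.7 and 401 with siRNA2, higher only in the siRNA2 libraries, with a log2 difference between siRNAs of 1.33 (adjusted p = 1.33e-15, edgeR).

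Cell death genes had 12 of 28 called higher and 5 lower (3 and 0 as 1 group) and 3 above and 1 below control. The 3 became 5 without control replicate 1, control replicate 3 or siRNA1 replicate 2, and the 1 became 2 without control replicate 3. Without genes holding either word 2 were called lower and 0 lay below. BCL2, the survival protein, was the 1 below, holds the siRNA1 word and stood at 12.9, 9.43 and 10.7 CPM in control, 2.21, 2.97 and 1.95 with siRNA1 and 6.56, 9.08 and 6.63 with siRNA2.

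Inflammatory cytokine and NF-kappa-B genes had 20 of 29 called higher and 2 lower (6 and 1 as 1 group), with 10 above and 1 below. Their median log2 change was 0.12 with siRNA1 and 1.02 with siRNA2, and 8 were called in opposite directions. Without genes holding either word 0 were called lower, and without control replicate 1 or 2 it was 1. CSF1, the macrophage growth factor, stood at 285, 278 and 261 CPM in control, 653, 629.7 and 681 with siRNA1 and 1460.0, 1274 and 1298 with siRNA2. IL32, a proinflammatory cytokine, stood at 2.4, 2.84 and 3.17 CPM in control, 10.8, 7.96 and 9.38 with siRNA1 and 16.7, 14.8 and 14.1 with siRNA2. NFKB2, a subunit of the noncanonical pathway, stood at 169, 175 and 176 CPM in control, 264, 244 and 266 with siRNA1 and 344, 329 and 333 with siRNA2. NFKB1, its canonical counterpart, stood at 90.8, 91.9 and 92.1 CPM in control, 46.9, 44.6 and 42.6 with siRNA1 and 60.4, 54.2 and 57 with siRNA2. NFKB1 holds the siRNA1 word. Summed leukocyte markers (10 genes) were 2.1 to 3.17 CPM in control libraries, 1.51 to 3.38 with siRNA1 and 9.08 to 10.3 with siRNA2, with CD3E at 0 in every library. The part of other cells in the cytokine values was not tested. Interferon-stimulated genes split, with 11 of 34 called higher and 10 lower (8 and 4 as 1 group), 9 above and 4 below control. IFI6, an interferon-induced protein, stood at 6.78, 6.6 and 6.87 CPM in control, 12.2, 14 and 10.9 with siRNA1 and 21.6, 16.7 and 15.8 with siRNA2. STAT2, the interferon signal transducer, stood at 51.8, 49.6 and 48.4 CPM in control, 74.7, 80.4 and 78.4 with siRNA1 and 124, 112 and 118 with siRNA2. OAS3, a sensor of double-stranded RNA, holds the siRNA1 word and stood at 103, 103 and 97.2 CPM in control, 52.2, 52.7 and 52.3 with siRNA1 and 49.9, 52.9 and 51.7 with siRNA2. IFIT1, an interferon-induced RNA-binding protein, stood at 67.9, 78.9 and 93.8 CPM in control, 32.6, 34.8 and 37.1 with siRNA1 and 46.1, 48.7 and 50.4 with siRNA2.

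AP-1 and immediate early genes had 11 of 24 called higher and 4 lower (4 and 2 as 1 group), with 6 above and 2 below. Without genes holding either word 2 were called lower. DUSP1, a phosphatase of stress kinases, stood at 11.7, 13.8 and 11.9 CPM in control, 41.7, 43.2 and 41.4 with siRNA1 and 30.5, 32.6 and 29.4 with siRNA2. FOSL1, the AP-1 subunit FRA1, stood at 889, 949 and 961 CPM in control, 643, 593 and 596 with siRNA1 and 514, 483 and 457 with siRNA2. JUN, its partner, holds the siRNA1 word and stood at 235, 254 and 260.2 CPM in control, 182, 161 and 175 with siRNA1 and 205, 192 and 196 with siRNA2. Receptor tyrosine kinases had 10 of 23 called higher and 6 lower (5 and 3 as 1 group), with 6 above and 3 below. DDR1, a receptor for collagen, stood at 49.5, 48.1 and 44.8 CPM in control, 107, 94 and 104 with siRNA1 and 90.8, 96.6 and 91.5 with siRNA2, opposite in direction to AXL.

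Metabolic lists were mixed. Glycolysis and hypoxia genes had 13 of 31 called higher and 9 lower (6 and 5 as 1 group), with 10 above and 7 below, and without genes holding either word 5 were called lower and 4 lay below. HK2, a hexokinase, holds the siRNA1 word and stood at 66.7, 68.2 and 66.2 CPM in control, 27.8, 29 and 25.5 with siRNA1 and 37.2, 34.2 and 39.1 with siRNA2. SLC2A3, the glucose transporter GLUT3, stood at 31.5, 33.5 and 37.2 CPM in control, 80.5, 86.8 and 83 with siRNA1 and 64.2, 57.6 and 64 with siRNA2. EGLN3, an oxygen sensor and hypoxia target, stood at 2.34, 1.78 and 2.46 CPM in control, 12.6, 11.9 and 13.6 with siRNA1 and 3.57, 4.92 and 4.3 with siRNA2. Cholesterol and fatty acid synthesis genes had 20 of 34 called higher and 3 lower, but 5 above and 0 below control. The 5 of 34 is near the 13% of all tested genes. Their median log2 change was -0.16 with siRNA1 and 0.65 with siRNA2, 16 of 34 were called in opposite directions, and 1 was called higher when the siRNAs were 1 group. MSMO1, a sterol oxidase, stood at 31.6, 27.4 and 31.5 CPM in control, 38.4, 43.7 and 37.5 with siRNA1 and 156, 147 and 161 with siRNA2. MVK, mevalonate kinase, stood at 32.7, 34.4 and 33.6 CPM in control, 41.4, 43 and 46.3 with siRNA1 and 93.2, 91.5 and 101 with siRNA2. Nuclear respiratory chain genes had 12 of 51 called higher and 4 lower (1 and 0 as 1 group), with 3 above and 1 below, and 12 of 51 is near the 24.2% of all tested genes. The 12 became 6, 5 and 21 without control replicate 1, 2 or 3, and the 3 above control became 12 without control replicate 3. NDUFA4, of cytochrome c oxidase, was above control, at 71.5, 63 and 70.2 CPM in control, 108, 106 and 103 with siRNA1 and 98.5, 101 and 95.1 with siRNA2.

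RNA interference genes had 5 of 15 called higher and 7 lower (2 and 3 as 1 group), with 3 above and 4 below control. The 4 became 7 without control replicate 3, and the 3 became 5 without siRNA1 replicate 3. Without genes holding either word 4 were called lower and 2 lay below. DROSHA, the nuclease that starts microRNA processing, stood at 95.1, 101 and 88 CPM in control, 66.8, 70 and 64 with siRNA1 and 52.1, 59.2 and 59 with siRNA2. DROSHA holds the siRNA2 word. Its partner DGCR8 stood at 63.4, 70.8 and 65.9 CPM in control, 54.1, 51.5 and 52.7 with siRNA1 and 53.4, 50 and 48.9 with siRNA2. XPO5, the exporter of precursor microRNAs, stood at 167, 168 and 146 CPM in control, 125, 128 and 117 with siRNA1 and 81.3, 83 and 80.5 with siRNA2. AGO4, an Argonaute, rose in every siRNA library, at 9.5, 6.53 and 7.8 CPM in control, 12.2, 12.4 and 13.1 with siRNA1 and 19.8, 20.3 and 19.4 with siRNA2. Endothelial markers (8 genes) summed to 23.2 to 24.5 CPM in control libraries, 15.5 to 18.1 with siRNA1 and 30.3 to 32.1 with siRNA2, with ERG at 0 in every library. TIE1, an endothelial receptor, was below control at 12.7, 15.1 and 13.7 CPM in control, 10.2, 9.53 and 9.43 with siRNA1 and 11.4, 12.2 and 10.1 with siRNA2. Mitochondrial ribosomal RNA took 0.601% to 0.654% of counts in control libraries, 0.988% to 1.23% with siRNA1 and 0.864% to 0.916% with siRNA2, also on one side of control.

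Promoter windows of the genes at least 2-fold above control held some words at other shares than the windows of all tested genes. Of 315 such windows 11.7% held TATAAA, the TATA word, on either strand, against 5.71% of all 11112. TGANTCA, the AP-1 word, stood in 9.52% against 4.88%. CCGGAAG, of ETS factors, stood in 6.03% against 19.0%, and GCGCANGCG, of NRF1, in 3.49% against 14.6%. TGCTGAC, of the MAF recognition element, stood in 3.49% against 3.33%. In the 147 windows of genes at least 2-fold below control, TATAAA stood in 8.16%, TGANTCA in 7.48%, CCGGAAG in 17.7% and GCGCANGCG in 12.2%. Raised shares of TATAAA and TGANTCA were thus not particular to genes above control. These shares are descriptions of the windows, with no test, and other words were searched as well.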

How the data were processed

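RNA-seq gene counts were analysed from 9 libraries of MDA-MB-231 cells, 3 per group. The deposited table gives raw counts and FPKM values per gene and library. Counts were made by the authors with HTSeq 0.6.1 from reads trimmed with Trimmomatic 0.30 and aligned with HISAT2 2.0.1, per the submitters' processing notes, which name hg19 and also DESeq. Of 58394 identifiers in GENCODE v29, 99.98% overlapped the GRCh38 position of the same gene, so coordinates here are GRCh38. The deposited FPKM values equalled count over size over column total in 100% of cells within 0.0051, and served in alternatives only. The sources used here do not say whether counting used strand. Of the 176 genes singled out 95 overlap a gene on the other strand and 54 one on the same strand, which may share their reads.

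Counts were fitted with edgeR 4.0.16 (R 4.3.3, limma 3.58.1) by its quasi-likelihood test with TMM scaling, after filterByExpr (minimum count 10) kept 15345 genes holding 99.873% of counts. One fit held the 3 groups, with a contrast of the mean of both siRNA groups against control and one of siRNA2 against siRNA1. The biological coefficient of variation was 0.0641. The fit was also run on counts simulated from its own spread with equal change for both siRNAs. That setting differs from these data, so no support is read from it. P-values were adjusted by Benjamini-Hochberg over all tested genes. Alternatives used DESeq2 1.42.0, other scalings and filters, limma on log2 of FPKM plus 1 or 0.1, a fold minimum of 1.5, the siRNA libraries as 1 group, a replicate block and leaving out each library. Leaving out genes with a 3' UTR word was added after seeing the data.

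Genes named were MILIP and MAFG, the 12 per direction of largest gap, the 6 of most equal and 3 of most unequal response, 4 of opposite response, 2 just inside and 2 just outside the rule, and up to 4 members per list of largest gap, with a mean of at least 5 CPM except in lists. Further list members such as RPA1 and VIM, named by their role, were chosen after their values were seen. A few genes and 1 list are not reported here. The members and the 36 lists were chosen with earlier results of these data known. Figures were drawn with matplotlib 3.10.9.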

Additional observations from a re-analysis of the deposited data

Results flagged for a closer look

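The size of the change differed between the siRNAs by the test of siRNA2 against siRNA1 in 10 named genes, all with an adjusted p below 0.05 by edgeR's quasi-likelihood test and with no overlap between the siRNA groups. These genes were picked as those that differed most, so the values describe the extremes. Above control, the siRNA2 minus siRNA1 log2 difference was 2.69 for TNFRSF1B, 2.36 for HMGCS1 and -2.25 for FGFR3. Below control it was 2.85 for TXNDC5, 2.69 for LCP1 and -2.55 for MBD2. Among genes moved in opposite directions it was 3.75 for CSF3, 3.23 for CXCL3, -3.53 for CTDSPL and -2.90 for MTUS1.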

How the results depend on the processing

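No fold change of MILIP or of a named gene changed sign as a called value under the alternatives run, but the balance of calls turned. With the 6 siRNA libraries as 1 group 1423 genes were called higher and 1155 lower, and with a fold minimum of 1.5 these were 660 and 492, against 3713 and 4273; limma on log2(FPKM + 1) gave 3908 and 3819. In these 3 higher calls outnumber lower ones. Higher calls made up 46.5% of calls, 55.2% as 1 group and 57.3% with the fold minimum. With a gap of at least 0.5, 302 genes lay above control and 162 below, against 1993 and 1953. Leaving out 1 library gave 3262 to 3734 called higher, 3797 to 4378 lower, 2099 to 2506 above and 2045 to 2531 below control, since fewer libraries then have to meet the rule. It also gave 1926 to 2107 genes on one side that differed between the siRNAs, against 2132, a MILIP log2 change of -3.48 to -3.07 and a permutation p of 0.0179 to 0.0357. Each such p is the smallest that the libraries left allow, so its range reflects only their number. DESeq2 called 3625 higher and 3947 lower. With the 3' UTR word genes left out, 3246 were called higher and 3131 lower. The 1-group fit adds the difference between siRNAs to the spread; the cause of the other shifts in calls was not tested. YAP targets turned from 10 higher and 11 lower to 10 and 8 without control replicate 1, and actin genes from 10 and 13 to 6 and 5 as 1 group.

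Whether same-numbered libraries share a culture or batch is not in the labels. After centring within groups they correlated at -0.09 to 0.13, and 8 of 18 best matched their own number. With 3 libraries per group these values cannot settle it. The replicate block called 3729 higher and 4266 lower. Of 3325 values of named genes under 19 alternatives 108 lost the call, 65 with the fold minimum and 30 as 1 group. Without control replicate 1 the adjusted p (edgeR) rose to 0.0555 for MTUS1, 0.052 for EXOG, 0.0745 for H2AZ2, 0.0829 for G3BP2 and 0.0519 for THY1. Without control replicate 3 it was 0.0568 for H2AZ2, and without siRNA1 replicate 1 it was 0.0563 for G3BP2. Depth limits genes near 3 counts, such as MAFA and GRHL3 in control.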
